A study of Mus musculus with 18 samples.

Results

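Mitosis and G2/M genes encode the proteins that carry a cell from the end of DNA replication through division. Of the 56 listed genes, 55 were matched to a probeset that the array annotation assigns to a single symbol, out of 19938 genes measured this way. Sgol1 was matched under its current symbol Sgo1, a synonym in RefSeq, and Ccnb1 was not analysed here. Of the matched genes, Top2a had 2 such probesets, and the one with the higher mean was used.

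The RNA came from conventional dendritic cells of the XCR1+ CD8a+ type, sorted from the thymus of untreated mice (CD11c+, MHCII+, CD11b- and CD172a-) and hybridised to 18 Affymetrix arrays. There were 3 backgrounds: CTRL, wild-type B6 mice kept specific pathogen free (SPF), Ifnar1-KO, SPF mice that lack a chain of the type I interferon receptor, and GF, germ-free wild-type B6 mice. In each background 3 arrays held immature cells, CD117+ without CCR7, and 3 held cells matured in the steady state, which carry CCR7 and no CD117. The labels name neither the age of the mice nor whether each array had its own mice, so p-values measure the spread between these arrays, which may be technical. All values below are log2 levels after RMA normalisation by the authors, and a change is the mean of the CCR7+ arrays minus the mean of the CCR7- arrays of the same background, with the standard error from 1 limma model over all arrays. A gene was called changed at a Benjamini-Hochberg adjusted p under 0.05 over the 19938 genes.

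A cell enters mitosis when cyclin-dependent kinase 1, bound to an A- or B-type cyclin, is activated. The spindle then captures the chromosomes at their kinetochores, the spindle assembly checkpoint holds back the anaphase-promoting complex until every chromosome is attached, and the destruction of securin and the cyclins lets the sister chromatids part before cytokinesis. Most genes of this programme are transcribed in late S phase and G2 and are read in a tissue as a sign of dividing cells. Conventional dendritic cells divide as precursors and immature cells, and mature CCR7+ cells are migratory and known to divide little.

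The mitosis genes were lower in CCR7+ than in CCR7- cells in all 3 backgrounds. In CTRL, 53 of 55 fell and 0 rose, where 13.6% of all genes fell and 12.6% rose. In Ifnar1-KO, 49 of 55 fell and 0 rose (10.8% and 9.42% of all genes), and in GF 50 fell and 0 rose (11.8% and 9.53%). The median change over the 55 genes was -2.56 in CTRL, -2.19 in Ifnar1-KO and -2.13 in GF, against 0.07, 0.00 and 0.03 over all genes. In CTRL, 50 fell by at least 1 on the log2 scale, a size reached by 7.44% of all genes; the counts were 47 in Ifnar1-KO (5.73%) and 46 in GF (6.2%). All 9 CCR7+ arrays lay below all 9 CCR7- arrays for 49 of the 55 genes, as they did for 8.28% of all genes. In bulk RNA of a sorted population, fewer dividing cells and less of a transcript per dividing cell cannot be told apart.

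**Figure D1:**
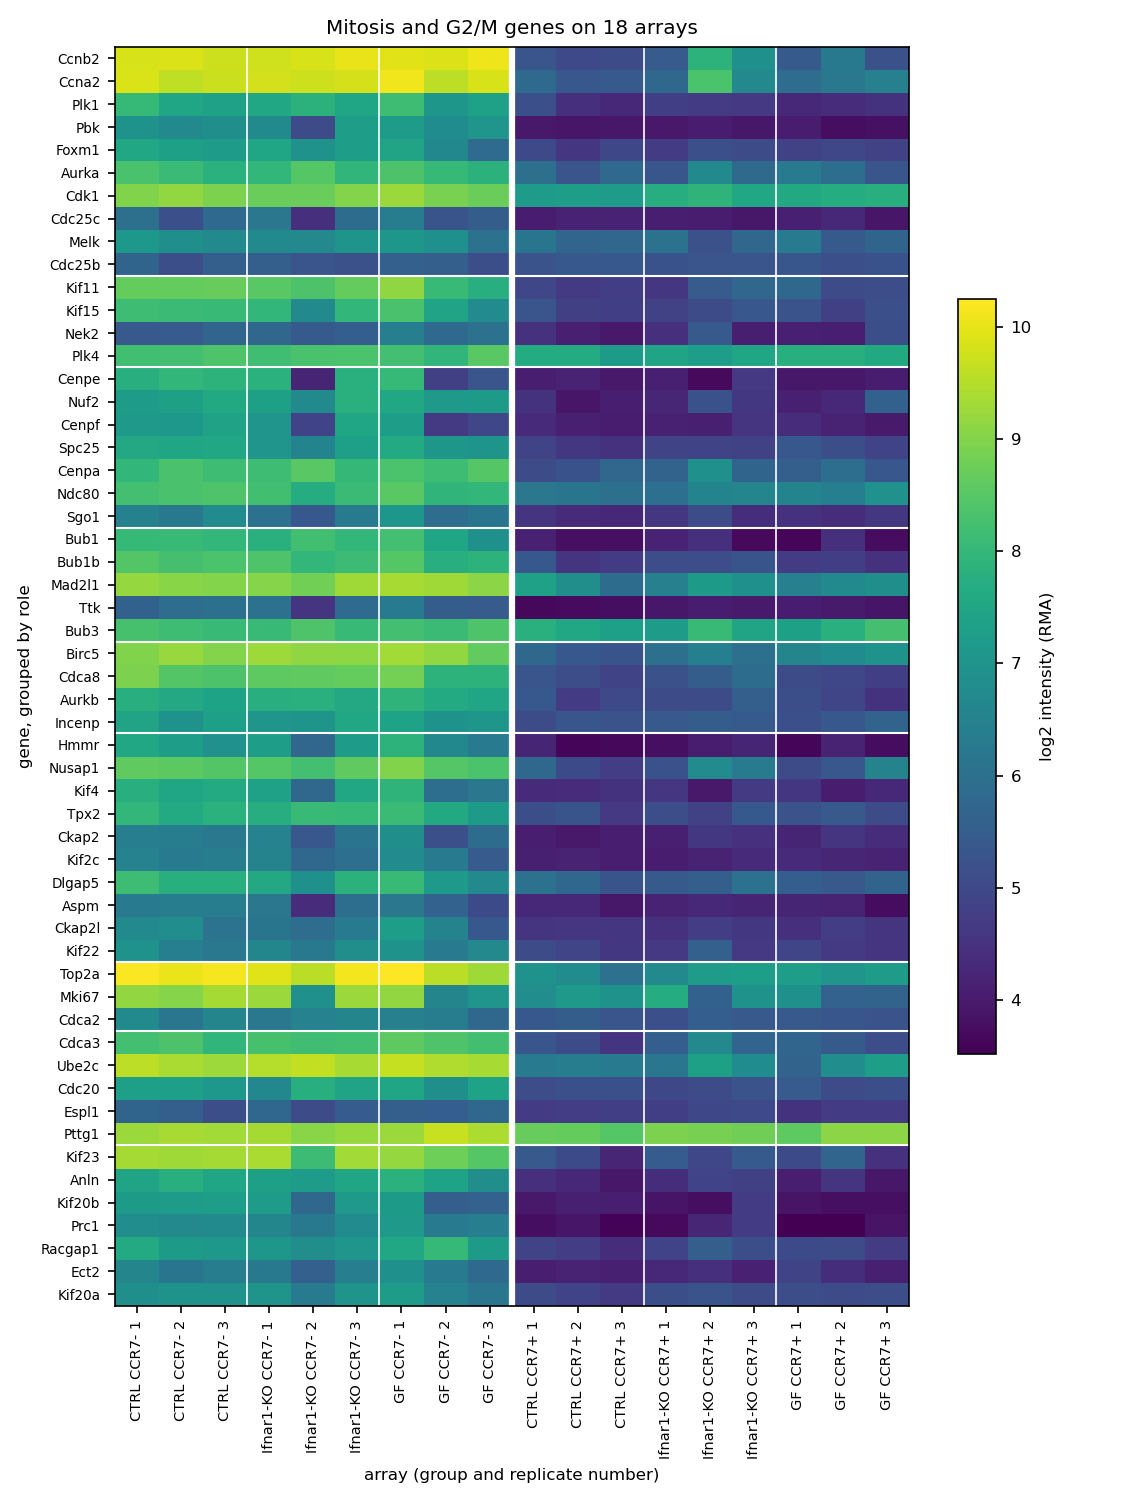
Log2 level of the 55 mitosis and G2/M genes (rows, grouped by role) on the 18 arrays (columns, grouped by background and stage). The CCR7- columns carry the higher levels, and the CCR7- arrays of Ifnar1-KO replicate 2 and GF replicates 2 and 3 are lower than the other CCR7- arrays for Cenpe, Cenpf and Mki67.

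The largest fall was that of Ccnb2, a B-type cyclin that activates Cdk1. Its level on the CTRL arrays was 9.85, 9.90 and 9.74 in CCR7- cells and 5.28, 5.0004 and 5.09 in CCR7+ cells. The groups stood far apart, and the change was -4.70 ± 0.42 (SE, n = 3 per group), a 26.0-fold lower level (limma, adjusted p = 8.31e-07). Kif23, a kinesin of the central spindle, read 9.34, 9.30 and 9.34 in CCR7- cells and 5.39, 5.03 and 4.24 in CCR7+ cells, a change of -4.44 ± 0.37 (adjusted p = 3.95e-07). Bub1, a checkpoint kinase of the kinetochore, read 8.04, 8.05 and 7.98 against 4.12, 3.79 and 3.80, a change of -4.11 ± 0.29 (adjusted p = 8.34e-08). Kif11, the motor that pushes the spindle poles apart, read 8.65, 8.67 and 8.68 against 4.95, 4.66 and 4.74, a change of -3.89 ± 0.32 (adjusted p = 3.94e-07). For each of these genes no CCR7+ array of CTRL came within reach of a CCR7- array.

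The promoters of these 4 genes are shown because they are the largest called falls whose window holds both sequence elements typical of genes with a peak in G2 and mitosis. These elements are the CCAAT box, which the factor NF-Y binds, and the cell cycle genes homology region (CHR), TTTGAA or TTCGAA, which the MuvB core of the DREAM and B-Myb complexes binds. Each window holds 250 bases before and 50 bases after the RefSeq start in GRCm38.p6, in the direction of transcription, and capitals mark every match on either strand (ATTGG and TTCAAA are the reverse of CCAAT and TTTGAA). The windows are Ccnb2 at chr9:70421505-70421804, minus strand, Kif23 at chr9:61946750-61947049, minus strand, Bub1 at chr2:127831810-127832109, minus strand, and Kif11 at chr19:37376132-37376431, plus strand.
Ccnb2: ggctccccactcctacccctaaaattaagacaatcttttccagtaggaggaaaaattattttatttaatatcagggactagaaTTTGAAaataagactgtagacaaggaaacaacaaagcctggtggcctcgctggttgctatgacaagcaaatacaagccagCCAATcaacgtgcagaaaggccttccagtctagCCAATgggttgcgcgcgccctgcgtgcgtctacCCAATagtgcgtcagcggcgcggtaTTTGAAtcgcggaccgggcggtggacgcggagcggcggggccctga
Kif23: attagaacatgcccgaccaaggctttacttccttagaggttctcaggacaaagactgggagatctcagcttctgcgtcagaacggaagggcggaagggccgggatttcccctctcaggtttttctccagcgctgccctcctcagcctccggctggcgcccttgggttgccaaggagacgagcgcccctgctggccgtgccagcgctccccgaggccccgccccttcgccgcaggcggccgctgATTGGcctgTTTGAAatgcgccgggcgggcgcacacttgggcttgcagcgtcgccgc
Bub1: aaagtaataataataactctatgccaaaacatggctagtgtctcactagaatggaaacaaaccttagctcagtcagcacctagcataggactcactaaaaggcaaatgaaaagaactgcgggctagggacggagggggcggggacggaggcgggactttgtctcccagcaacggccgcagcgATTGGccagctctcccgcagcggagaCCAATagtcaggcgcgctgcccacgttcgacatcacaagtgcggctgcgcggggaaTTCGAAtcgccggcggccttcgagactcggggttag
Kif11: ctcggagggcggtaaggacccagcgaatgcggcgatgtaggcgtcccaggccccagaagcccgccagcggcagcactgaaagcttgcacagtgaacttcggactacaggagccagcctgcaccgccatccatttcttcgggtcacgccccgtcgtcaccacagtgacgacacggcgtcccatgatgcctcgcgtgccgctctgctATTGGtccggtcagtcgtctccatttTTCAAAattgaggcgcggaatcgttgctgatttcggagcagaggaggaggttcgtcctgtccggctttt
The Ccnb2 window holds 3 CCAAT boxes and 2 CHR matches, and the Bub1 window is the one of the 4 whose CHR reads TTCGAA. In each printed window a CHR match lies within 20 bases of the start site.

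A window was found for 45 of the 55 genes, 48 windows in all. CCAAT was present in 36 of the 48 (75.0%), and in 37.4% of all 32851 windows of the same length. A CHR was present in 39 (81.2%), and in 19.2% of all windows. Both stood together in 34 (70.8%), against 7.52% of all windows. The 81 CCAAT matches had a median position 60 bases before the start, and 53 of them lay within the last 100 bases before it. The 53 CHR matches had their median 2 bases before the start. Bub3, Prc1 and Ect2 have 2 windows each, and a site in both windows of a gene is counted from each start. A match describes letters only. The windows of Cdc25b and Bub3, neither of them called, hold both elements, and the windows of Birc5, Melk, Plk4, Nuf2, Mad2l1, Nusap1 and Pttg1 hold neither, although each of these 7 genes fell in CTRL.

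**Figure D2:**
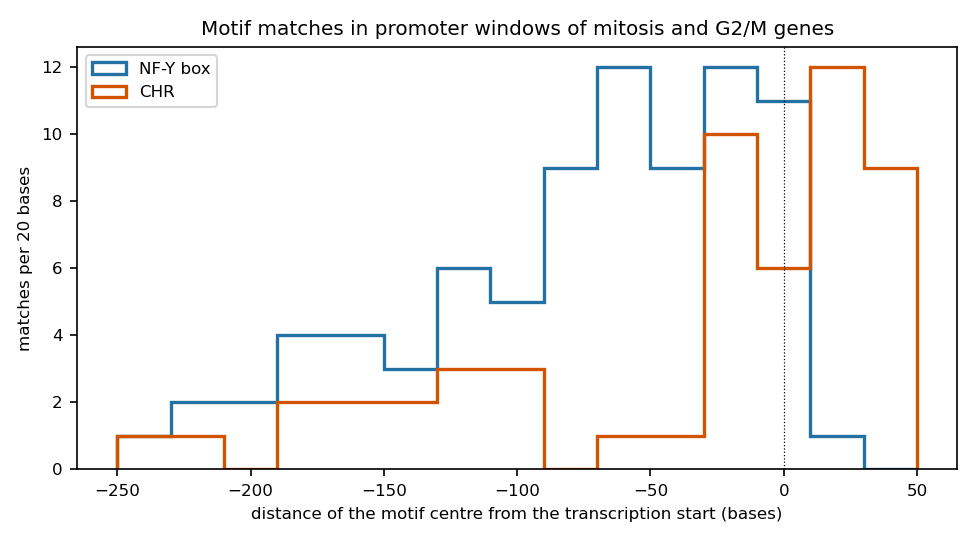
Number of motif matches per 20 bases (y axis) by distance from the RefSeq start (x axis, bases) in the 48 promoter windows of the mitosis genes. The NF-Y box matches gather before the start, with a median of -60, and the CHR matches gather around it, with a median of -2.

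Among the genes of mitotic entry, 9 of 10 fell in each background, with a median change of -2.45 in CTRL, -2.21 in Ifnar1-KO and -2.003 in GF. Besides Ccnb2, the CTRL change was -4.20 ± 0.42 for Ccna2, the A-type cyclin of S phase and G2, and -3.01 ± 0.26 for Plk1, a kinase that drives centrosome maturation and mitotic entry. Cdk1, the kinase partner of these cyclins, read 8.97, 9.17 and 8.93 in CTRL CCR7- cells and 7.23, 7.30 and 7.25 in CCR7+ cells. Its groups were tight and did not overlap, and the change of -1.76 ± 0.12 (adjusted p = 8.74e-08) was smaller than that of either cyclin. Foxm1, the transcription factor of G2 and mitotic genes, changed by -2.52 ± 0.29. The exception was Cdc25b, a phosphatase that activates Cdk1 at the G2/M transition. It read 5.69, 5.14 and 5.55 in CTRL CCR7- cells against 5.23, 5.38 and 5.37, and the change of -0.13 ± 0.14 was not called (adjusted p = 0.520). Its changes were -0.08 in Ifnar1-KO and -0.19 in GF, also not called.

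The centrosome genes fell in 4 of 4 cases in CTRL and GF and in 3 of 4 in Ifnar1-KO. Kif11 had the largest CTRL change of this group and Plk4, the kinase that starts centriole duplication, the smallest. Plk4 stayed above 7 on every array, at 8.21, 8.24 and 8.41 in CTRL CCR7- cells and 7.66, 7.66 and 7.19 in CCR7+ cells (change -0.79 ± 0.14, adjusted p = 6.23e-04). In GF its change of -0.54 (adjusted p = 0.0117) was no longer called without GF CCR7- replicate 3, where it was -0.40 (adjusted p = 0.0640). Nek2, a kinase of centrosome separation, fell in CTRL (-1.34 ± 0.31) and GF (-1.64 ± 0.31). In Ifnar1-KO its change of -0.92 was not called (adjusted p = 0.0511); its CCR7+ levels there were 4.46, 5.41 and 4.09, with replicate 2 just below its CCR7- arrays, which read 5.75, 5.43 and 5.53. Without CCR7+ replicate 2 the change was -1.30 and was called (adjusted p = 0.00366).

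At the kinetochore and centromere 7 of 7 genes fell in CTRL, 6 in Ifnar1-KO and 5 in GF. Spc25 and Ndc80, subunits of the complex that holds microtubules, changed by -2.86 ± 0.19 and -2.20 ± 0.20 in CTRL. The smallest CTRL change was that of Sgo1, which protects centromeric cohesion, at -2.11 ± 0.27. Cenpe, the kinesin that moves chromosomes to the spindle equator, read 7.77, 7.97 and 7.87 in CTRL CCR7- cells and 4.08, 4.20 and 3.98 in CCR7+ cells, a change of -3.78 ± 0.84 (adjusted p = 0.00336). In Ifnar1-KO the CCR7- arrays read 7.82, 4.22 and 7.79, and in GF 8.04, 4.79 and 5.31. The CCR7+ arrays of the 3 backgrounds ranged from 3.68 to 4.62, so Ifnar1-KO replicate 2 lay within their range and GF replicates 2 and 3 above it but far below the other CCR7- arrays. The changes in these backgrounds, -2.47 (adjusted p = 0.0512) and -2.07 (adjusted p = 0.102), were not called; with the replicate number as a block that in Ifnar1-KO was (adjusted p = 0.0334).

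Other genes had low CCR7- values on the same arrays. Cenpf, a large kinetochore and nuclear envelope protein, read 4.88 on the CCR7- array of Ifnar1-KO replicate 2 and 4.67 and 4.94 on those of GF replicates 2 and 3, and between 7.03 and 7.48 on the other 6. Its change in GF, -1.45, was not called (adjusted p = 0.124). The mean level of the cohesin genes was 7.22, 7.32 and 7.13 on these arrays against 7.79 to 8.01 on the others. Both arrays of Ifnar1-KO replicate 2 and of GF replicates 2 and 3 were also left out, a step chosen after seeing the data. In that fit Cenpe changed by -3.44 in Ifnar1-KO and by -4.09 in GF. Then Cenpf changed by -2.93 in GF and by -2.91 in Ifnar1-KO. GF has 1 array per stage left in that fit, which is assumed to vary like the others. Of the 55 genes, Ifnar1-KO replicate 2 had the lowest CCR7- value for 21, GF replicate 3 for 13 and GF replicate 2 for 9. Why these arrays stand apart was not tested.

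The spindle assembly checkpoint genes fell in 4 of 5 cases in each background. Bub1b, the BubR1 protein that restrains the anaphase-promoting complex, changed by -3.49 ± 0.20 in CTRL, and Mad2l1, which binds Cdc20 at unattached kinetochores, by -2.38 ± 0.28. Ttk, the kinase that starts the checkpoint signal, changed by -2.12 ± 0.30. Bub3, the partner that docks the Bub proteins, was at the edge of the threshold. It read 8.29, 8.16 and 8.08 in CTRL CCR7- cells against 7.79, 7.56 and 7.33 in CCR7+ cells. The groups did not overlap, and the change of -0.62 ± 0.22 was not called (adjusted p = 0.0568); it was -0.59 in Ifnar1-KO (adjusted p = 0.0815) and -0.44 in GF (adjusted p = 0.207). With the replicate number as a block Bub3 was called in CTRL (adjusted p = 0.0147) and in Ifnar1-KO (adjusted p = 0.0202), and it passed in 12 of the 30 alternative fits in CTRL, 8 in Ifnar1-KO and 2 in GF.

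The chromosomal passenger complex, in which Aurora B (Aurkb) acts with Incenp, survivin (Birc5) and borealin (Cdca8), fell in 4 of 4 cases in every background, with a median change of -3.03 in CTRL, -2.75 in Ifnar1-KO and -2.55 in GF. Birc5 read 8.99, 9.22 and 9.01 in CTRL CCR7- cells and 5.79, 5.38 and 5.27 in CCR7+ cells. Its change of -3.59 ± 0.18 (adjusted p = 2.90e-09) had the smallest adjusted p of the 55 genes. Next by size within the complex was Cdca8 at -3.50 ± 0.24. Incenp had the smallest change of this complex, at -2.04 ± 0.17.

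The motors and microtubule binders of the spindle and chromosomes fell in 10 of 10 cases in every background, with a median of -2.27 in CTRL. Hmmr, a spindle-pole protein, changed by -3.42 ± 0.41 and Kif22, a chromokinesin, by -1.67 ± 0.27. Aspm, a spindle-pole protein known from microcephaly, read 6.33, 6.38 and 6.36 in CTRL CCR7- cells against 4.26, 4.26 and 3.96 in CCR7+ cells. In Ifnar1-KO its CCR7- levels were 6.20, 4.38 and 5.94, and its CCR7+ levels 4.15, 4.26 and 4.21. The change there was -1.30 (adjusted p = 0.0181). The call was kept without the low CCR7- replicate 2 but lost without some other single arrays. The change was -0.96 without CCR7- replicate 1 (adjusted p = 0.0959), -1.09 without CCR7- replicate 3 (adjusted p = 0.0863) and -1.28 without CCR7+ replicate 1 (adjusted p = 0.0549).

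Of the chromosome genes, Top2a, the topoisomerase that untangles sister DNA, read 10.22, 10.05 and 10.16 in CTRL CCR7- cells and 6.98, 6.77 and 6.05 in CCR7+ cells, a change of -3.55 ± 0.26 (adjusted p = 1.09e-07). It fell in each background, as did Cdca2, a regulator of protein phosphatase 1 on chromatin, with -1.10 ± 0.17 in CTRL. Mki67, the Ki-67 protein that coats mitotic chromosomes and is widely used as a proliferation marker, moved less evenly. Its CCR7- levels were 9.16, 9.04 and 9.35 in CTRL, 9.24, 6.90 and 9.23 in Ifnar1-KO, and 9.16, 6.59 and 7.02 in GF. Its CCR7+ levels were 6.81, 7.16 and 6.94, then 7.70, 5.60 and 6.95, then 6.91, 5.65 and 5.65. The low values fell on both arrays of Ifnar1-KO replicate 2 and of GF replicates 2 and 3. The change in CTRL was called at -2.21 ± 0.71 (adjusted p = 0.0316). Without any 1 of the 6 CTRL arrays it lay between -2.13 and -2.31 and was not called (adjusted p 0.0557 to 0.0818). The call was also lost without both arrays of CTRL replicate 2 (-2.38, adjusted p = 0.100). It was kept in a fit of only the CTRL groups and with the replicate number as a block. The standard error is shared by all backgrounds. Standard deviations in CCR7- and CCR7+ cells were 0.15 and 0.18 in CTRL. They were 1.35 and 1.06 in Ifnar1-KO, and 1.37 and 0.73 in GF. The changes of -1.71 in Ifnar1-KO (adjusted p = 0.117) and -1.52 in GF (adjusted p = 0.161) were not called. With the replicate number as a block the changes in Ifnar1-KO (adjusted p = 0.00140) and GF (adjusted p = 0.00261) were called. Without the 6 arrays of those replicates, left out after their low values were seen, the changes in Ifnar1-KO and GF became -1.91 and -2.25. That fit keeps only 1 GF array per stage.

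The genes of anaphase and ubiquitin ligase control fell in 5 of 5 cases in CTRL and GF and in 4 of 5 in Ifnar1-KO. Cdca3, a substrate adaptor for the destruction of the Wee1 kinase, and Ube2c, the ubiquitin-conjugating enzyme of the anaphase-promoting complex, changed by -3.21 ± 0.26 and -3.10 ± 0.32 in CTRL. Cdc20, its activator in mitosis, changed by -2.10 ± 0.22. Pttg1, the securin that holds separase inactive, remained high in CCR7+ cells: it read 9.25, 9.37 and 9.31 in CTRL CCR7- cells against 8.70, 8.65 and 8.49 in CCR7+ cells, a change of -0.70 ± 0.14 (adjusted p = 0.00114). It changed by -0.34 in Ifnar1-KO (not called, adjusted p = 0.0976, and 0.0256 with the replicate number as a block) and by -0.54 in GF, where the call was lost without CCR7- replicate 2 (-0.42, adjusted p = 0.0510). Espl1, the separase that cuts cohesin, changed by -0.72 ± 0.16 in CTRL.

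The central spindle and cytokinesis genes fell in 7 of 7 cases in each background, with medians of -3.00 in CTRL, -2.32 in Ifnar1-KO and -2.66 in GF. Besides Kif23, Anln, the anillin of the cleavage furrow, changed by -3.34 ± 0.22 in CTRL, Prc1, which bundles the central spindle, by -3.00 ± 0.24, and Ect2, which activates RhoA at the furrow, by -2.23 ± 0.26. The smallest change of this group was that of Kif20a, a kinesin of the central spindle, at -2.06 ± 0.22.

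Further calls were lost when single arrays were left out. In Ifnar1-KO they were Cenpf (change -2.19), which was -1.91 without CCR7- replicate 1, -1.68 without CCR7- replicate 3, -2.12 without CCR7+ replicate 1 and -2.11 without CCR7+ replicate 2, and Cdc25c, a Cdk1-activating phosphatase, at -1.48, which was -1.14 without CCR7- replicate 1. Espl1, at -0.52, was -0.37 without CCR7- replicate 1, -0.50 without CCR7- replicate 3, -0.45 without CCR7+ replicate 1, and was also not called with the replicate number as a block (adjusted p = 0.0553). In GF, Melk, a kinase of the same expression programme, at -0.87, was -0.67, -0.76, -0.68 and -0.81 without CCR7- replicates 1 and 2 and CCR7+ replicates 2 and 3 in turn, and in CTRL its change of -1.05 was -0.98 (adjusted p = 0.0774) without both arrays of replicate 2.

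**Figure D3:**
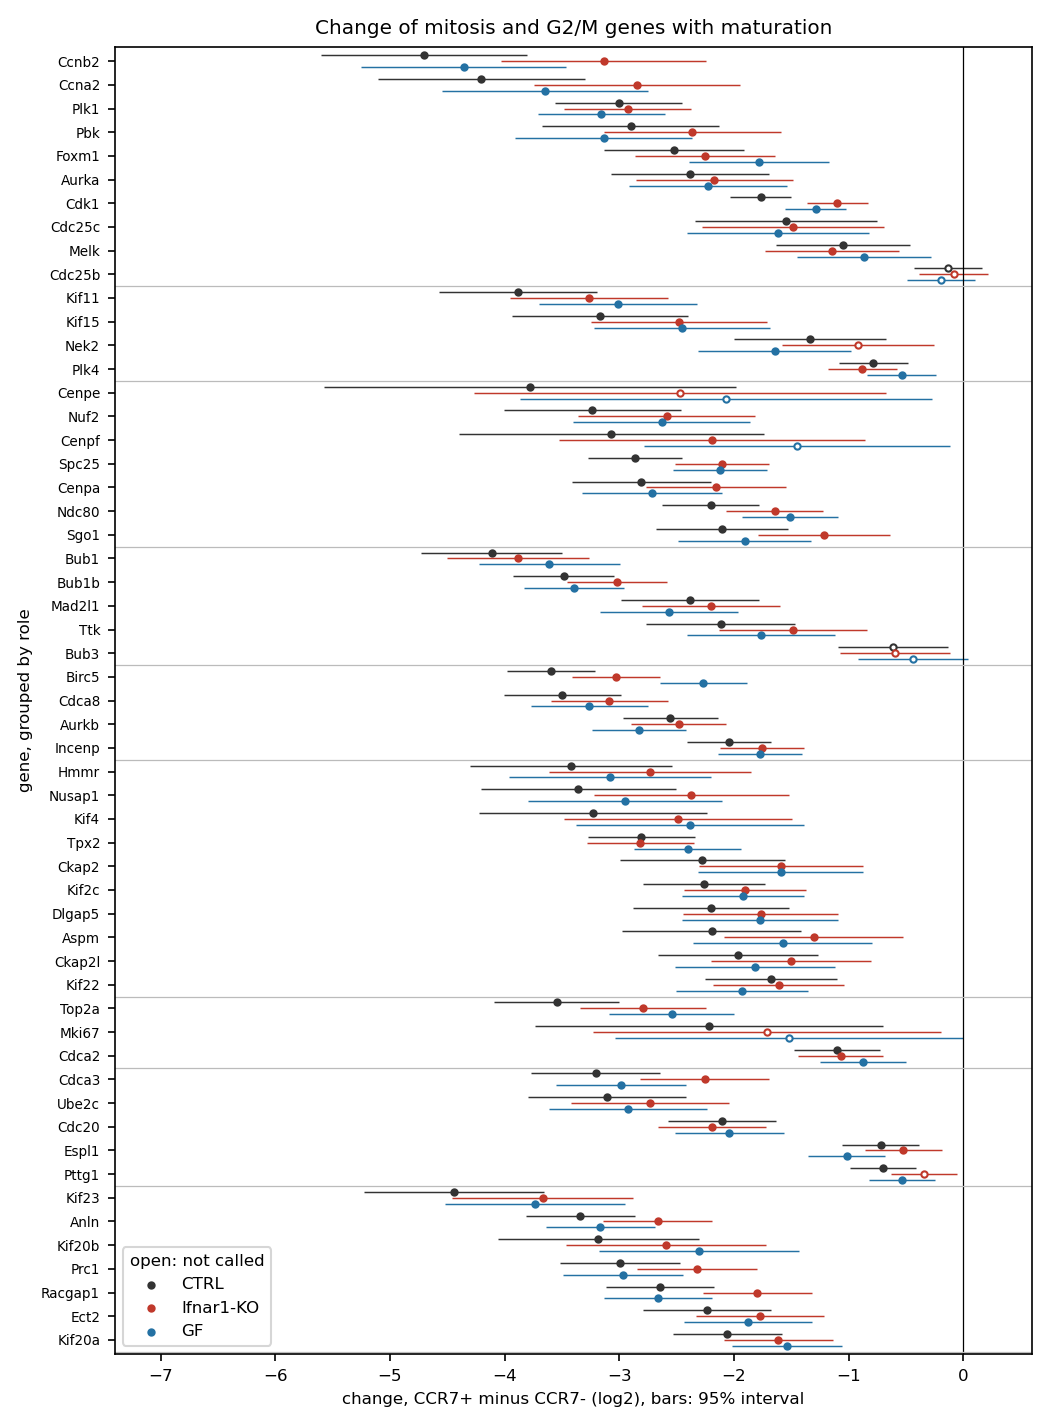
Change with maturation (CCR7+ minus CCR7-, log2, x axis) of each of the 55 genes (y axis, grouped by role) in CTRL, Ifnar1-KO and GF, with 95% confidence intervals from the limma model; open circles were not called. Every point lies below 0, from -4.70 for Ccnb2 to -0.08 for Cdc25b.

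**Figure D4:**
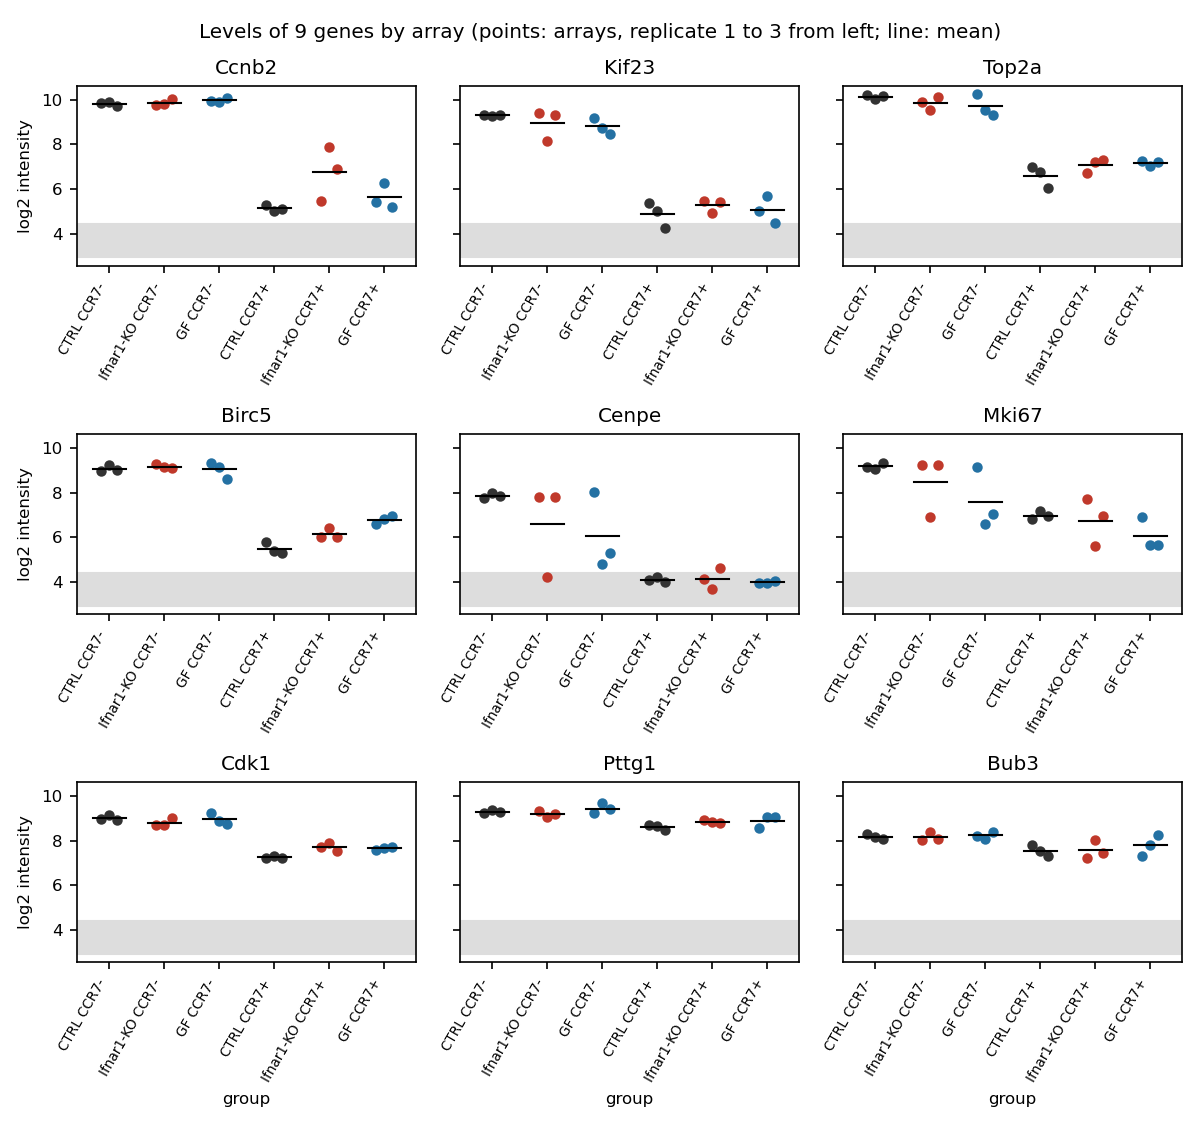
Log2 level on each array for Ccnb2, Kif23, Top2a, Birc5, Cenpe, Mki67, Cdk1, Pttg1 and Bub3, by background and stage; the grey band spans the 5th to 95th percentile of 1027 olfactory receptor genes, 2.93 to 4.41. Cenpe in CCR7+ cells lies in or near the band, and Pttg1 stays well above it in both stages.

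Olfactory receptor genes, which dendritic cells are not known to transcribe, give a gauge of the array's background: their 5th to 95th percentile ran from 2.93 to 4.41 and their 99th percentile was 5.17. The mean level of 18 of the 55 genes in CTRL CCR7+ cells, 14 in Ifnar1-KO and 15 in GF lay at or below 4.41, among them Cenpe, Cenpf, Nuf2, Bub1, Ttk, Hmmr, Aspm, Anln and Prc1 in CTRL, and for 0 genes in CCR7- cells. The change of such a gene can be smaller than the true difference.

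The backgrounds were compared gene by gene. For the difference between Ifnar1-KO and CTRL in the maturation change, 0 of the 55 genes were called, as were 0% of all genes. At an unadjusted p under 0.05 there were 9, all above 0, that is with a smaller fall in Ifnar1-KO. All genes gave 299 above 0 and 602 below at that level. The smallest unadjusted p was that of Cdk1 (0.66 ± 0.18, adjusted p = 0.958), followed by Spc25 (0.76) and Racgap1, a RhoA regulator of the central spindle (0.85). For GF against CTRL 0 were called (0%). All genes gave 266 above 0 and 394 below at an unadjusted p under 0.05. Of the 55 genes 5 were below 0.05 unadjusted, all above 0. These were led by Birc5 (1.33 ± 0.25, adjusted p = 0.999), Top2a (1.003) and Cdk1 (0.48). Both comparisons use the same 6 CTRL arrays. The median difference was 0.50 for Ifnar1-KO and 0.34 for GF over the 55 genes, against -0.03 and -0.02 over all genes. Without both arrays of Ifnar1-KO replicate 2 and of GF replicates 2 and 3 the medians over the 55 genes were 0.22 and -0.12. That fit keeps only 1 GF array per stage. Before adjustment, the median half-width of the 95% interval of the difference was 0.83 among the 55 genes. Larger differences also went uncalled, up to 1.56 for Ifnar1-KO and 1.71 for GF, so differences of this size could be missed.

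In CCR7- cells 0 of the 55 genes were called between Ifnar1-KO and CTRL (0% of all genes). At an unadjusted p under 0.05, 437 of all genes were lower and 964 higher. The 3 of the 55 genes below that level were Spc25 (-0.56), Aspm (-0.85) and Sgo1 (-0.60). Without both arrays of Ifnar1-KO replicate 2 these differences were -0.35, -0.28 and -0.35. Between GF and CTRL 0 were called (0.015%). Of all genes 647 were lower and 613 higher at an unadjusted p under 0.05. The 5 of the 55 genes below that level were all lower, led by Kif20b, a kinesin of cytokinesis (-1.11), Cenpf (-1.59) and Foxm1 (-0.72). Here the low arrays of GF replicates 2 and 3 enter these values: Kif20b read 7.18, 5.56 and 5.63 in GF CCR7- cells and 7.18 to 7.28 in CTRL. Without both arrays of these replicates and of Ifnar1-KO replicate 2 the differences were -0.05 for Kif20b, 0.08 for Cenpf and 0.07 for Foxm1. GF CCR7- cells are then represented by replicate 1 alone, which had the highest CCR7- value for 32 of the 55 genes.

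In CCR7+ cells 0 of 55 were called between Ifnar1-KO and CTRL (0.015%). The 8 genes with an unadjusted p under 0.05 were all higher in Ifnar1-KO (of all genes 319 were higher and 263 lower at that level), led by Ccnb2 (1.62), Cdca3 (0.99) and Birc5 (0.67). Ccnb2 read 5.44, 7.88 and 6.91 in Ifnar1-KO CCR7+ cells against 5.28, 5.0004 and 5.09 in CTRL, and Ccna2 read 5.79, 8.34 and 6.68 against 5.83, 5.36 and 5.40. The highest value of each was on the Ifnar1-KO replicate 2 array, on which the mean level of 18 thymocyte markers was also the highest of all arrays, at 7.87 where the other CCR7+ arrays ranged from 5.26 to 6.31. Without both arrays of that replicate the difference for Ccnb2 was 1.05 ± 0.35 and for Ccna2 0.71 ± 0.24, and without CCR7+ replicate 1 that for Ccnb2 was called, at 2.27 (adjusted p = 0.0101).

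Between GF and CTRL in CCR7+ cells, 1 of the 55 genes was called: Birc5, the survivin of the passenger complex and an inhibitor of apoptosis. It was 1 of 6 genes called among all 19938 (0.0301%). Its levels were 6.57, 6.80 and 6.95 in GF, 5.79, 5.38 and 5.27 in CTRL and 6.0007, 6.42 and 6.01 in Ifnar1-KO. The GF and CTRL arrays did not overlap, and the difference was 1.30 ± 0.18 (adjusted p = 0.0163). The call was lost in a fit of only these groups (adjusted p = 0.322) and with the trailing r of the array codes as a covariate (1.23, adjusted p = 0.121); the codes end in r on 6 of 6 GF arrays, 4 of 6 Ifnar1-KO arrays and 2 of 6 CTRL arrays, and the labels do not say what it means. It was lost too without CTRL CCR7+ replicate 2 (1.25, adjusted p = 0.0714) or 3 (1.19, adjusted p = 0.128), or GF CCR7+ replicate 2 (1.28, adjusted p = 0.0579) or 3 (1.21, adjusted p = 0.136). Next by unadjusted p were Cdk1 (0.41, adjusted p = 0.566) and Ndc80 (0.52, adjusted p = 0.764), neither called.

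Ccr7 itself read 7.25 to 9.09 on the CCR7- arrays and 11.8 to 12.1 on the CCR7+ arrays, and Kit, which encodes CD117, 8.54 to 9.30 against 5.31 to 7.04. Ifnar1, the gene deleted in Ifnar1-KO, read 6.07 to 8.07 on the 6 Ifnar1-KO arrays and 7.501 to 8.16 on the CTRL and GF arrays; the groups overlapped, and whether the probeset lies in the deleted part was not tested. Xcr1 and Clec9a, which mark the sorted type, read at least 11.3 and 10.4 on every CCR7- array and 4.89 to 8.36 and 7.70 to 8.73 on the CCR7+ arrays. Batf3, another marker of this type, went the other way. It read 8.20 to 9.19 on the CCR7- arrays and 8.96 to 9.67 on the CCR7+ arrays, so its ranges overlapped.

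Markers of other thymic cells were read beside these results. Of the 18 thymocyte markers, 3 rose with maturation in CTRL, 3 in Ifnar1-KO and 4 in GF, and 0 fell. Of all genes 12.6%, 9.42% and 9.53% rose. The changes of all 18 markers lay above 0 in each background, with medians of 1.27 in CTRL, 1.43 in Ifnar1-KO and 1.33 in GF. Before adjustment, the median half-width of their confidence intervals was 1.25, so rises of this size could be missed. The mean over the list was 4.46 to 4.87 on the CTRL CCR7- arrays and 5.26 to 5.96 on the CCR7+ arrays, 4.54 to 5.36 and 5.33 to 7.87 in Ifnar1-KO, and 4.57 to 4.77 and 5.50 to 6.31 in GF. The list means of the stages overlapped: the Ifnar1-KO CCR7- replicate 2 array, at 5.36, lay above the CCR7+ arrays of Ifnar1-KO replicate 1 (5.33) and CTRL replicate 2 (5.26). Of the 12 markers of XCR1+ dendritic cells 1 rose and 8 fell in each background, and of the 7 B cell markers 0 changed in any. The mean level of the mitosis genes was 7.04 to 7.90 on the CCR7- arrays and 4.94 to 5.51 on the CCR7+ arrays. Among the thymocyte markers, Rag1, which cuts antigen receptor genes, reached 10.3 and Cd3e, a T cell receptor subunit, 9.90 on the Ifnar1-KO CCR7+ replicate 2 array, whereas Ptcra, the pre-T cell receptor chain, stayed at 3.84 to 4.70 on all arrays. The mean levels of the macrophage, plasmacytoid and epithelial marker lists were 5.06 to 5.27, 6.13 to 6.46 and 4.64 to 4.90 on the CCR7- arrays and 4.56 to 4.86, 6.06 to 6.96 and 4.73 to 4.97 on the CCR7+ arrays. The part of thymocyte RNA in the mitosis values was not tested.

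**Figure D5:**
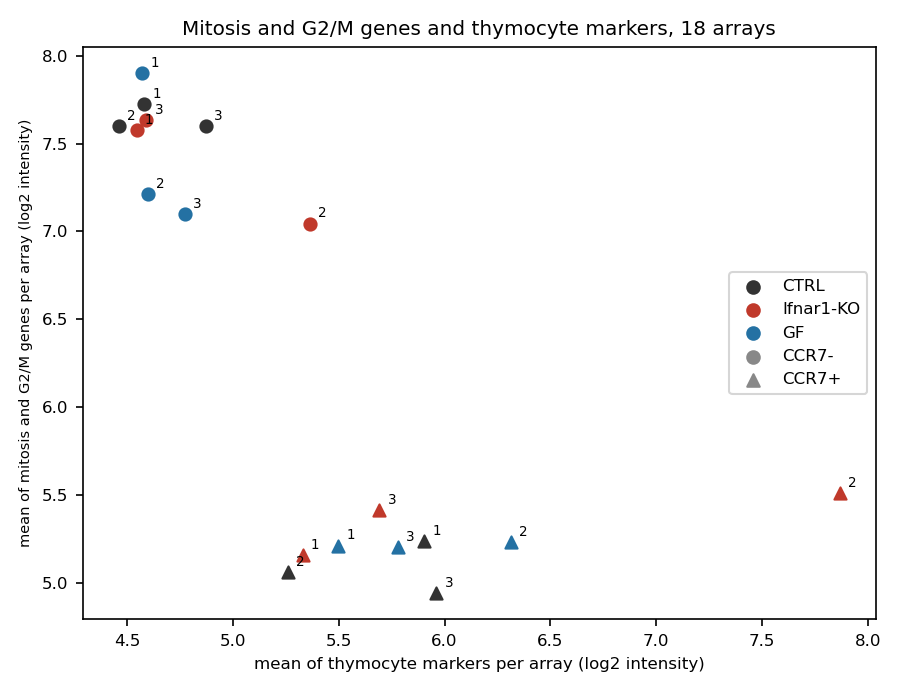
Mean log2 level of the 55 mitosis genes (y axis) against the mean of 18 thymocyte markers (x axis) on each array, by background and stage. The CCR7- arrays lie between 7.04 and 7.90 and the CCR7+ arrays between 4.94 and 5.51, and the Ifnar1-KO CCR7+ replicate 2 array lies apart on the x axis at 7.87.

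Other genes of the same pathway were summarised by list. Of 62 further mitotic genes, 54 fell and 1 rose in CTRL, with a median of -1.71; in Ifnar1-KO 47 fell and 2 rose, and in GF 48 fell and 1 rose. The largest falls in CTRL were those of Knl1, a scaffold of the outer kinetochore (-4.26), Ncaph, a condensin subunit (-3.25), and Shcbp1, a protein of the midbody (-3.20). Zwint, a kinetochore protein, rose by 1.04 (adjusted p = 0.0084). Of the 29 DNA replication genes, 24 fell in CTRL and 25 in each other background, with medians of -1.81, -1.62 and -1.54. These were led by Prim1, a primase subunit (-3.49), and Rrm2 and Rrm1, the ribonucleotide reductase subunits (-3.40 and -2.95).

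The remaining lists held fewer called genes or moved in both directions. Beside these lists and those above, 13.6% of all genes fell and 12.6% rose in CTRL. The shares were 10.8% and 9.42% in Ifnar1-KO, and 11.8% and 9.53% in GF. The cohesin counts in Ifnar1-KO and GF and the DREAM and MuvB rises in CTRL were near these shares. Of the 16 core subunits of the anaphase-promoting complex and its enzymes, 5 fell and 0 rose in CTRL, among them Anapc5 (-2.01), Cdc23 (-1.66) and Ube2s (-1.23); 4 fell and 2 rose in Ifnar1-KO, and 6 fell and 0 rose in GF. Of 13 cohesin genes 4 fell and 1 rose: the rings' Smc1a and Smc3 (-1.33 and -1.17) and Esco2, the S phase acetyltransferase (-1.02), were lower, and Rad21, the kleisin of the ring, was higher (0.64). In Ifnar1-KO 2 cohesin genes fell and 1 rose, and in GF 1 fell and 1 rose. Of 13 genes of the DREAM and MuvB complexes 4 fell and 2 rose, with Lin54 (-1.33), Lin9 (-1.18) and Tfdp1 (-0.89) lower and Lin37 (0.54) and Dyrk1a (0.48) higher; 3 fell and 1 rose in Ifnar1-KO, and 5 fell and 2 rose in GF. Of 18 CDK inhibitors and brakes on division, 7 rose and 4 fell: Ccng2, an atypical cyclin linked to arrest (2.99), Cdkn2b, an inhibitor of Cdk4 and Cdk6 (2.76), and Btg1, an antiproliferative factor (1.15), were higher, and Btg2 (-1.48), Pkmyt1, a kinase that restrains Cdk1 (-0.91), and Cdkn2c (-0.90) were lower. In Ifnar1-KO 8 of these inhibitors rose and 4 fell, and in GF 7 rose and 5 fell.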

How the data were processed

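The deposited table holds log2 values after RMA for 35556 probesets, made by the authors with oligo per the submitters' processing notes; their versions were not stated there. RNA (0.7 to 7.3 ng) was amplified with a NuGEN kit, per the labels' protocols. Of the probesets 21789 had 1 gene symbol, 1621 several and 12146 none. For each of 19938 genes the probeset with the highest mean was kept, with no filter.

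Groups came from the labels. The CTRL replicate 2 array codes carry the stage letters inverted; the label's stage was used. A group-means model over 18 arrays was fitted with limma 3.58.1 in R 4.3.3 (Python 3.11.15 for tables), adjusted p under 0.05 over all genes. The code was also run on simulated data. These were independent values with the same spread of a gene in every group, so groups that spread differently or correlated arrays were not covered. Alternatives were the intensity trend, array weights, low-level filters, array centring, other probeset rules, only the groups compared, the trailing r, the replicate block and left-out arrays. Deviations of same-numbered arrays from their group means correlated at 0.188, 0.147 and 0.100 in CTRL and at 0.284, 0.321 and 0.236 in Ifnar1-KO. In GF the correlation was 0.267 for pair 1 and near 0 for pairs 2 and 3 (0.00354 and 0.0296). Counts describe the lists; no set test was run. The number of arrays limits precision.

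Named were, in each role, the members with the largest and smallest CTRL change, Cdk1, Mki67, Top2a, every member not called with maturation or called elsewhere, and the 3 smallest unadjusted p between backgrounds; other named genes complete a role and were chosen after their values were seen. Other lists of division and replication genes are shown by up to 3 of their largest calls in each direction. Marker lists are shown by counts or mean levels, and by the levels of single genes. The members and lists were chosen with earlier results of these data known.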

Additional observations from a re-analysis of the deposited data

How the results depend on the processing

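Over 30 alternative fits per comparison, no called value of a mitosis gene turned its direction. Single-gene results were followed for every maturation change, but between backgrounds only for called genes and the 3 smallest unadjusted p. Among uncalled values, Cdc25b in Ifnar1-KO turned (0.02 without CCR7- replicate 1). Without both arrays of Ifnar1-KO replicate 2 and of GF replicates 2 and 3, others turned too. These included Cenpf and Foxm1 between GF and CTRL in CCR7- cells (0.08 and 0.07) and the median GF difference in maturation change (-0.12). In CCR7- cells 48 of the 55 genes then lay above 0 between GF and CTRL, against 18 in the main fit. That fit keeps only 1 GF array per stage. The CCR7- array kept, GF replicate 1, had the highest CCR7- value for 32 of the 55 genes. In all, 5390 of the single-gene results kept their side of the threshold, 55 passed it only in the alternative and 45 no longer passed. The number of genes called with maturation was 52 to 54 in CTRL, 45 to 51 in Ifnar1-KO and 48 to 52 in GF when each array was left out in turn. In these fits it was 0 to 1 for Ifnar1-KO against CTRL and for GF against CTRL in CCR7+ cells, and 0 in the other comparisons between backgrounds. A fit of only the groups compared gave lower counts, 44 in Ifnar1-KO and 47 in GF. There Aspm, Cdc25c, Cenpf, Espl1 and Ttk lost their call in Ifnar1-KO, and Melk, Plk4 and Pttg1 in GF. The replicate number as a block gave 54, 52 and 51 called genes in CTRL, Ifnar1-KO and GF. It ended the call of Espl1 in Ifnar1-KO. It added calls of Bub3 in CTRL, of Bub3, Cenpe, Mki67 and Pttg1 in Ifnar1-KO and of Mki67 in GF (adjusted p = 0.00261). The labels do not say what same-numbered arrays share. Birc5 in GF CCR7+ cells left 0 called genes with only the groups compared, with the trailing r as a covariate, without both CTRL arrays of replicate 2, and without both arrays of Ifnar1-KO replicate 2 and of GF replicates 2 and 3. With the 99th percentile of olfactory receptor genes as background, 36 genes in CTRL, 29 in Ifnar1-KO and 31 in GF lay within it in CCR7+ cells, against 18, 14 and 15 with the 95th. The cause of these differences was not tested. Signal near background limits the changes of those genes, and 3 arrays per group limit the differences between backgrounds.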
